A study of Homo sapiens with 4 samples.

Results

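The integrated stress response was followed through 10 genes: SLC7A11, DDIT4, ASNS, TRIB3, CHAC1, DDIT3, ATF3, ATF4, SLC3A2 and CTH. The genes were chosen by their values on these arrays, since SLC7A11 and DDIT4 were among the transcripts that were lowest with every drug relative to mock, and the other genes belong to the same pathway. They were found as all gene probes whose RefSeq accession maps to these symbols, which gave 16 of 58201 probes and 10 of 25006 named genes. Differences from the mock array are therefore given as a description, with no test.

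The arrays measured HML58-3 cells, a derivative of the human colon cancer cell line HCT116 engineered to make luciferase when a methylated marker promoter loses its methylation. DAC (decitabine, an inhibitor of DNA methyltransferases), OR-2003 or OR-2100 at 1 μM, or mock, was given on day 1, and total RNA was taken on day 5. OR-2003 and OR-2100 are DACs with a trialkylsilyl group on the 5′ oxygen; the silicon carries a pair of methyl groups and an n-propyl group in OR-2003, and ethyl groups alone in OR-2100. A single one-colour Agilent array was run for each of the 4 conditions, so that no difference has a replicate check, no p-value is given and the number of arrays limits the precision. What the mock medium held is not given in the sources used here, and the 3 comparisons share the mock array, so that anything particular to that culture or array cannot be told apart from an effect of the drugs.

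Levels are given on the log2 scale relative to the 75th percentile of the intensities of an array, which is 0. Where 3 values are given for the drugs, their order is DAC, OR-2003, OR-2100. A probe was called reduced when it was at least 2-fold lower than on the mock array and at −1 or more on the mock array, and induced when higher by 2-fold or more and at −1 or more on the drug array. Of 13 epithelial marker genes, 10 were well above background on every array, and KRT20, VIL1 and CEACAM5 were not. The summed intensity of the epithelial markers was 1593 times the 75th percentile on the mock array and 1663 to 1757 times with the drugs, while CLDN4, ELF3, EPCAM, CLDN3 and CDH1 were reduced with each drug. The summed intensity of 11 markers of other cell types was 3.20 times the 75th percentile on the mock array and 6.89 to 7.35 times with the drugs. Of these markers 6 were well above background on every array and CD3E, PECAM1, COL1A2, COL3A1 and SYP were not. CD14 and VWF were induced with each drug. COL1A1, at 0.99 on the mock array, was 0.77 to 0.90 higher on the log2 scale and not called. PDGFRB at −0.63, −0.29 and −1.08, ALB at −0.37, −0.45 and −0.25, and PTPRC at −0.31, −0.27 and −0.16 were lower than mock. These lower markers were under −1 on every array. PECAM1 and COL1A2 had signal well above background on the drug arrays but not on mock. By the same bound PECAM1 was at least 8.40-fold, 8.90-fold and 9.05-fold higher, and COL1A2 at least 1.56-fold, 2.01-fold and 1.79-fold. Both stayed under −1 and were not called. The part of the markers of other cell types in the results was not tested. In a bulk sample, fewer cells of a type and less RNA per cell cannot be told apart. The spike-in slope of the mock array, 0.899, fell outside the range that the scanner software accepts, and those of the drug arrays, 0.913 to 0.955, were inside it. The part of this slope in the differences from mock was not tested.

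The integrated stress response is a common path by which cells answer a lack of amino acids, unfolded protein in the endoplasmic reticulum, a lack of heme or a virus. Kinases that sense these states phosphorylate the translation initiation factor eIF2alpha, which slows protein synthesis as a whole while the mRNA of the transcription factor ATF4 is translated more. ATF4, with C/EBP partners, switches on genes for amino acid uptake, amino acid synthesis and the charging of tRNA, together with the stress regulators DDIT3, ATF3 and TRIB3. Cancer cells in culture often have a high ATF4 output because of their demand for cystine, glutamine and serine. SLC7A11 and SLC3A2 form the exchanger that brings in cystine for glutathione, and DDIT4 restrains mTORC1, the kinase complex that drives growth.

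ATF4 and its C/EBP partners bind a C/EBP-ATF response element, searched here as TGATGNAA on both strands of promoter windows from 250 bases before to 50 bases after each start site in RefSeq (GRCh38.p14). The table held windows for 9 of the 10 genes, 17 windows in all, and not for SLC7A11. The letters were found in 4 of these 17 windows, which belong to ASNS, CHAC1, ATF3 and SLC3A2, against 3.62% of all 35093 windows. These 4 windows are shown because they hold the element, and that of DDIT4 because DDIT4 was among the genes that differed most from mock, though its window held no match; matches are in capitals, in the orientation of the gene. The ASNS window is chr7:97872359-97872658 on the minus strand. Those of CHAC1, ATF3, SLC3A2 and DDIT4 are chr15:40953221-40953520, chr1:212565157-212565456, chr11:62881449-62881748 and chr10:72273674-72273973, all on the plus strand.
ASNS: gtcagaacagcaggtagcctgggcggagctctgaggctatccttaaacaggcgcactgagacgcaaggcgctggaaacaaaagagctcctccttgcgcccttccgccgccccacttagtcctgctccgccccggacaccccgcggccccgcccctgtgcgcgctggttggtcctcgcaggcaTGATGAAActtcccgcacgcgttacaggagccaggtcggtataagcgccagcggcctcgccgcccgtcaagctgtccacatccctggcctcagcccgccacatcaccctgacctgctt
CHAC1: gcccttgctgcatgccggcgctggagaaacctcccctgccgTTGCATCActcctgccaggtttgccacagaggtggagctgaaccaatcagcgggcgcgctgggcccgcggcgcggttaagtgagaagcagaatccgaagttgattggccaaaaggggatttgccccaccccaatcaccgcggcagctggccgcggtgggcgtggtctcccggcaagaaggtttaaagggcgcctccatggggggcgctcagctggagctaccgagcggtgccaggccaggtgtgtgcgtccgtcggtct
ATF3: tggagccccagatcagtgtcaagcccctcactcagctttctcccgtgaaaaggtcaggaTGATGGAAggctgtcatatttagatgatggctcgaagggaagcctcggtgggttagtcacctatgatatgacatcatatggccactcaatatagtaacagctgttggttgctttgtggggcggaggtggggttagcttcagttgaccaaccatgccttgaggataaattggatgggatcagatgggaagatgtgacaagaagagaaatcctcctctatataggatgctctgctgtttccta
SLC3A2: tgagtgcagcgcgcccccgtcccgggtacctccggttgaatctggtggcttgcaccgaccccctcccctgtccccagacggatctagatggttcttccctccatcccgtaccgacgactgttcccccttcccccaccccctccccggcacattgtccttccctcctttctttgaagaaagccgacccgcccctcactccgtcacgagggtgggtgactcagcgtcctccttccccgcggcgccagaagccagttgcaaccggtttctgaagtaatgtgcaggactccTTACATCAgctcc
DDIT4: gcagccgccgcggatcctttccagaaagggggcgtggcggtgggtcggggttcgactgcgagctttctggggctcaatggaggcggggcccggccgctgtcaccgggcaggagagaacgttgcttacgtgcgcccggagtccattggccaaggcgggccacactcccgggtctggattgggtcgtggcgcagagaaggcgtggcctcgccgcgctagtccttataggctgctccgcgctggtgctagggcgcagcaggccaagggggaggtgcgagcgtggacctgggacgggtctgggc

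In the ASNS window the match TGATGAAA lay 68 to 61 bases before the start site; ASNS is the textbook gene in which such an amino acid response element was described. In CHAC1 the match was on the opposite strand, TTGCATCA as printed, 209 to 202 bases before the start site. The ATF3 match TGATGGAA lay 191 to 184 bases before a start site. The SLC3A2 match, TTACATCA as printed, lay on the opposite strand at bases 38 to 45 after a start site. The cAMP response element TGACGTCA was in 1.85% of all windows and in no window of these genes. Start sites without a window were not searched. Its shorter form TGACG, which the full element contains, was in 24.5% of all windows and in windows of ASNS, ATF4, SLC3A2 and CTH. A match is a description of the letters and not a binding site.

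The windows of 8 of the genes held more CpG, the dinucleotide that DNA methylation marks, than the median window. They held 17 to 38 CpG in 300 bases, against a median of 14 over all windows and quartiles of 4 and 28. DDIT4 had 30 CpG, TRIB3 36 to 38 and CHAC1 24, and the 2 ATF3 windows had 4 and 1. The counts cover only start sites with a window, so those of ATF3 do not describe any other ATF3 start site. Methylation was not measured on these arrays.

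Of the 16 probes, all were well above background on all 4 arrays, 15 were at −1 or more on the mock array, and none was saturated. Reduced with DAC were 9 of the 16 probes, where 13.0% of the 18035 probes at −1 or more on the mock array were reduced. The same 9 probes were reduced with OR-2003 and with OR-2100, beside 13.1% and 14.5% of all such probes, and 11.0% of all such probes were reduced with all 3 drugs. They stood for 8 genes, which were all but ATF3 and CTH. Over named genes, each taken by its brightest probe, the shares reduced were 12.3% with DAC, 12.5% with OR-2003, 14.1% with OR-2100 and 10.8% with all 3. Nothing is read from these counts, since the genes were selected on the same arrays. The median over all probes well above background was −0.21, −0.19 and −0.23, and moved to −0.013, 0.012 and −0.0063 when the percentile was taken over those probes alone, so that differences and list medians smaller than this shift have no settled sign. The median log2 difference over the 10 genes was −2.90 with DAC, −2.89 with OR-2003 and −2.95 with OR-2100, against −0.12, −0.093 and −0.23 over all named genes.

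ATF4, the transcription factor at the centre of the response, had a log2 level of 9.36 on the mock array, 7.83 with DAC, 7.85 with OR-2003 and 7.72 with OR-2100. The drug arrays lay close together and below mock, which made ATF4 mRNA 2.88-fold, 2.84-fold and 3.11-fold lower, in this order. ATF4 is regulated mainly at translation, and its protein was not measured here. DDIT3 (CHOP), a transcription factor of the C/EBP family that ATF4 switches on under lasting stress, was at 3.64 on the mock array and at 0.75, 0.81 and 0.80 with the drugs. It was thus 7.37-fold, 7.07-fold and 7.12-fold lower with the drugs. TRIB3, a pseudokinase that feeds back on ATF4, was at 8.08 on the mock array and at 5.17, 5.12 and 4.93 with the drugs. The differences of TRIB3 were −2.91, −2.96 and −3.15 on the log2 scale.

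ATF3, a stress-induced repressor that often follows ATF4, was not reduced, and its probes disagreed. Its brightest probe (A_23_P34915) was at 4.75 on the mock array and at 5.89, 5.92 and 5.92 with the drugs, which is 2.21-fold, 2.24-fold and 2.24-fold higher. A second probe (A_24_P33895) was at −0.62 on the mock array and at 0.43, 0.40 and 0.47 with the drugs, and another (A_33_P3214105) at 0.32 and at 1.29, 1.24 and 1.40. These 3 probes were higher with every drug, by 0.92 to 1.17 on the log2 scale. The remaining probe (A_33_P3214096) lay below mock, at −0.38 on the mock array and −0.85, −0.97 and −0.79 with the drugs. Called induced were 2 of the ATF3 probes with DAC, 2 with OR-2003 and 3 with OR-2100, beside 11.0%, 11.2% and 11.1% of all probes at −1 or more on the drug array. The call of the brightest probe was lost with OR-2003 under scaling by the array median, where it was 0.94 higher, and the second probe was only 0.59 higher at its lowest over the alternatives; no probe of the other genes was induced.

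SLC7A11, the transport subunit of the cystine and glutamate exchanger, stood at 5.74 on the mock array, 1.23 with DAC, 1.18 with OR-2003 and 1.26 with OR-2100. The mock value was far above the drug arrays, which differed from each other by at most 0.077. The differences were −4.51, −4.55 and −4.48, or 22.7-fold, 23.5-fold and 22.3-fold lower. By its mean difference the SLC7A11 probe ranked 2 from the lowest of 27921 probes well above background on all arrays, behind ADGRF1 at −5.66. SLC7A11 was chosen for being among the lowest, so its rank is no separate result. SLC3A2, the heavy chain that carries SLC7A11 and several other transporters to the membrane, was at 4.71 on the mock array and at 3.11, 2.94 and 2.99 with the drugs. Its differences of −1.60, −1.77 and −1.72 were smaller in size than those of its partner.

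SLC7A11-AS1, a transcript antisense to SLC7A11, had 4 probes. The only one well above background on all arrays was at −0.34 on the mock array and at −1.54, −1.80 and −1.97 with the drugs. Another (A_22_P00003558) had no signal well above background on mock and was at −2.14, −1.80 and −2.10 with the drugs, which is at least 4.42-fold, 5.60-fold and 4.57-fold higher than the mock array, taking there the lowest signal of any probe well above background. The remaining probe with signal well above background on the drug arrays (A_22_P00003556) was at least 1.14-fold higher with DAC and 1.42-fold higher with OR-2100, with no bound above 1 for OR-2003. The antisense probes thus went in opposite directions.

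DDIT4 (REDD1), an inhibitor of mTORC1 that stress and low oxygen switch on, had a probe printed in 10 spots on each array. The spots had a mean of 6.44 on the mock array with an SD of 0.030, 2.27 with DAC (SD 0.077), 2.28 with OR-2003 (SD 0.073) and 2.21 with OR-2100 (SD 0.085). The lowest mock spot was at 6.40 and the highest drug spot at 2.41, so that the spots of the mock array and of the drug arrays did not overlap. Its differences from mock were −4.17, −4.16 and −4.23, or 17.9-fold to 18.7-fold lower, and its mean difference ranked 5 from the lowest. That rank too follows from how DDIT4 was chosen. Spots of 1 array share its RNA and its hybridisation, so their spread is array noise and says nothing of differences between cultures. Over the 284 probes with 10 spots that were well above background, the median SD between spots was 0.059 to 0.066.

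ASNS, which makes asparagine from aspartate and glutamine, was measured by 3 probes that did not move together. The brightest (A_23_P145694) was at 8.75 on the mock array and at 5.59, 5.51 and 5.37 with the drugs, that is 8.96-fold, 9.49-fold and 10.5-fold lower. The next (A_33_P3243502) was at 0.46 on the mock array and at 0.71, 0.60 and 0.72 with the drugs, and the dimmest (A_33_P3365553) at −1.88 and at −1.47, −1.46 and −1.20. Neither of these passed 2-fold in any comparison, and both are annotated with another ASNS transcript than the first. ASNSP1, a pseudogene and near copy of ASNS, had 2 probes that were lower by 3.34 to 3.54 on the log2 scale, and the part of the copy and of ASNS itself in the signal of either set of probes cannot be told apart.

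CHAC1, an enzyme that breaks down glutathione and is a sensitive ATF4 and DDIT3 target, had 2 probes, and both were reduced. The brighter (A_33_P3376971) was at 5.66 on the mock array and at 2.40, 2.63 and 2.59 with the drugs, or 9.55-fold, 8.18-fold and 8.41-fold lower. The dimmer (A_33_P3376965) was at 1.68 on the mock array and at −1.85, −1.81 and −1.92 with the drugs. Its differences were −3.53, −3.49 and −3.60 on the log2 scale. CHAC2, the paralog of CHAC1, was instead 0.43 to 0.69 higher on the log2 scale. CTH, which makes cysteine from cystathionine, was at 3.23 on the mock array and at 3.35, 3.25 and 3.16 with the drugs. Its differences of 0.12, 0.013 and −0.069 were within the error the scanner software gives for a difference of such spots, which was 0.204 to 0.222 on the log2 scale over the 16 probes.

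**Figure D1:**
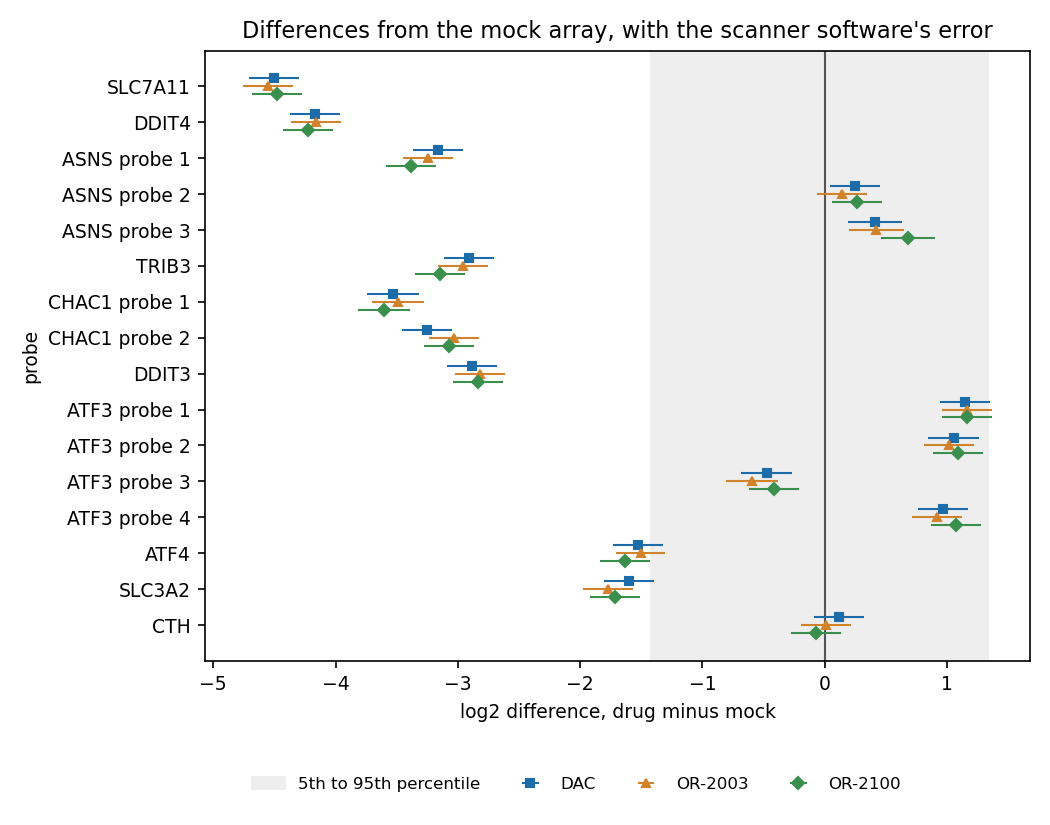
Log2 difference of each probe from the mock array, with bars of the error that the scanner software estimates for 1 spot on each array; grey marks the 5th to 95th percentile of all probes well above background, −1.42 to 1.34 at its widest. SLC7A11 and DDIT4 lie farthest to the left, 9 probes lie left of the grey band with all 3 drugs, and no probe lies right of it.

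The differences of the 3 drugs were most like those of SLC7A11 in DDIT4 and then in ANXA10, ETV1, PRDM16 and NIBAN1, by the Euclidean distance over the 3 differences among 21272 named probes. The distance was 0.574 for DDIT4 and 0.652 for ANXA10, and reached 1.66 for NIBAN1. For DDIT4 the nearest were ANXA10 at 0.446, ETV1 at 0.552, SLC7A11, PRDM16 and NIBAN1. NIBAN1, itself an ATF4 target gene that stress switches on, was at 4.28 on the mock array and at 0.65, 0.81 and 0.72 with the drugs. The points share the mock array, and the distance mostly follows the size of the difference.

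The wider pathway was described by 8 lists with 148 genes on the array beside the 10 genes, 130 of them at −1 or more on the mock array. Reduced were 49 genes with DAC, 49 with OR-2003 and 53 with OR-2100, to be read beside the shares of all named genes above. Induced were 5, 6 and 5 genes, where 11.5%, 11.7% and 11.6% of named genes at −1 or more on the drug array were induced. CBS, SLC7A10, BCAT1, CDO1 and TXNIP were induced with each drug, and SESN1 with OR-2003. For BCAT1, CDO1 and TXNIP, which had no signal well above background on mock, folds are lower bounds. Each gene was taken by its brightest probe, and some genes stand in more than 1 list. EIF2S3 and MANF were in the lists but not matched to a probe, and list medians, like that of all named genes, include genes not well above background.

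The genes upstream of ATF4 had medians near those of all named genes. The list of 17 genes held eIF2alpha kinases and phosphatases, subunits of eIF2 and of the related factor eIF2B, and other related genes such as OMA1. All 17 were at −1 or more on the mock array. Of these genes 1 was reduced with DAC, 2 with OR-2003 and 1 with OR-2100, and none was induced. The median differences were −0.13, −0.20 and −0.28. The kinase genes EIF2AK3 (PERK) and EIF2AK4 (GCN2), which sense unfolded protein and uncharged tRNA, differed from mock by −0.28 to −0.13 and by 0.11 to 0.30. OMA1, a mitochondrial protease that relays stress to eIF2alpha, was the lowest at −1.05, −1.15 and −1.22 with the drugs, followed by the heme-sensing kinase EIF2AK1 at −0.88, −1.03 and −0.97. EIF2AK2, the kinase that senses double-stranded RNA, was the highest at 0.55, 0.36 and 0.60, and EIF2B2 followed at 0.26 to 0.32.

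Among 23 transcription factor and signalling genes listed from general knowledge as ATF4 targets or relatives of them, 19 were at −1 or more on the mock array. Reduced were 9 with DAC, 10 with OR-2003 and 10 with OR-2100, and none was induced. The list medians were −0.94, −0.92 and −0.92. The lowest were NIBAN1 and STC2, a secreted glycoprotein, which was at 1.60 on the mock array and at −1.43, −1.29 and −1.76 with the drugs. The highest measured on all arrays were CEBPD and TRIB1, both within 0.13 to 0.21 of mock. VLDLR, not well above background on mock, was at least 3.06-fold, 3.65-fold and 3.49-fold higher with the drugs. DDR2, likewise without such signal on mock, was at least 2.04-fold, 1.61-fold and 2.24-fold higher. Both stayed under −1 and were not called. FGF21 went the other way, with signal well above background on the mock array alone. TRIB2, a relative of TRIB3 like TRIB1, differed by −0.38, −0.92 and −0.68, but was at −2.26 on the mock array and so under the level for a call.

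Of 15 genes listed for amino acid synthesis and related steps, CHAC2 among them, 12 were at −1 or more on the mock array. Of these, 9 were reduced with each drug, and 2 of the 15 were induced. The list had medians of −1.32, −1.35 and −1.36. PHGDH, the first enzyme of serine synthesis, was at 5.43 on the mock array and at 2.03, 1.90 and 1.92 with the drugs. PSAT1, the next enzyme of that path, was at 7.24 on the mock array and at 4.20, 4.14 and 4.08 with the drugs. PSAT1 was 8.22-fold to 8.90-fold lower and PHGDH 10.6-fold to 11.5-fold lower, while PSPH, the last enzyme of the path, differed by −1.32, −1.36 and −1.50. CBS, which makes cystathionine from homocysteine and serine, went the other way: it was at −2.83 on the mock array and at 3.64, 3.57 and 3.70 with the drugs, or 84.1-fold to 91.8-fold higher. CBS has an annotated near-identical copy, CBSL, and their signals on this probe cannot be told apart. CTH, the next step of transsulfuration, stayed near its mock level as given above. BCAT1, which transfers the amino group of branched-chain amino acids, was the other induced gene of the list, at −6.23 on the mock array and at −0.21, −0.18 and −0.35 with the drugs, or at least 16.9-fold, 17.2-fold and 15.3-fold higher. Among genes well above background on every array, ALDH1L2 came next to CBS, at 0.38 to 0.98. It was at −2.73 on the mock array and under −1 on every array.

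Of 20 amino acid transporters, 13 were at −1 or more on the mock array; 8 of these were reduced with each drug, 1 of the 20 was induced, and 4 were not well above background on all arrays; the medians were −0.61, −0.60 and −0.85. SLC6A9, a glycine transporter, was lowest at −2.92, −2.81 and −2.98 with the drugs. SLC1A4, a carrier of alanine, serine and cysteine, differed by −2.34, −2.10 and −2.44, but was at −1.64 on the mock array and so under the level for a call. SLC7A5, the leucine transporter that also pairs with SLC3A2, was at 5.70 on the mock array and at 4.05, 3.98 and 3.98 with the drugs. SLC7A10, another exchanger subunit that pairs with SLC3A2, was induced from −3.76 to 0.67, 0.54 and 0.58. Next to it among genes well above background on every array was SLC36A1, at 0.73 to 0.83. SLC7A7, not well above background on mock, was at least 5.31-fold, 5.46-fold and 6.03-fold higher, but stayed under −1 and was not called.

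The cytosolic aminoacyl-tRNA synthetases, which load tRNA with amino acids, had all 20 genes at −1 or more on the mock array. Reduced were 12 with DAC, 11 with OR-2003 and 12 with OR-2100, none was induced, and the medians were −1.05, −1.12 and −1.23. AARS1 was lowest at −2.64, −2.78 and −2.67, followed by YARS1, at 3.04 on the mock array and at 1.04, 1.03 and 1.01 with the drugs. HARS1 and RARS1 were the highest, at 0.12 to 0.22 and 0.15 to 0.30. The response element TGATGNAA was in promoter windows of 7 of the 16 synthetase genes with a window, which were AARS1, CARS1, GARS1, IARS1, MARS1, NARS1 and TARS1. All 7 were reduced with each drug. Over the 8 lists it was in windows of 22 of 116 genes, among them 1 of 20 of the endoplasmic reticulum list and 0 of 12 of the glutathione list. Of these 22 genes, 18 were at −1 or more on the mock array and 15 of them were reduced with all 3 drugs, against 22 of 83 such genes without it. PPP1R15B, SLC1A3 and TSC2 held it and were not reduced, at −0.65 to −0.55, 0.13 to 0.31 and 0.0094 to 0.15, and the induced gene BCAT1 held it too. Over named genes it was in windows of 53 of 1028 genes reduced with all 3 drugs (5.16%). Among genes at −1 or more on the mock array that were not, it was in windows of 186 of 8576 (2.17%). These shares are a description of letters over genes chosen on these arrays. The lists were chosen with earlier results known and differ in their share of matches, so nothing is read from counts within them.

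The unfolded protein response genes of the endoplasmic reticulum differed little from all named genes in the middle of the list. Of 21 genes, 20 were at −1 or more on the mock array; 4 were reduced with DAC, 3 with OR-2003 and 5 with OR-2100, none was induced, and the medians were −0.092, −0.061 and −0.15. HSPA5 (BiP), the main chaperone of that compartment, was among those reduced, at 4.69 on the mock array and at 3.24, 3.35 and 3.29 with the drugs. SEL1L, a part of the degradation machinery, was −1.30, −1.37 and −1.46 from mock. The co-chaperone genes DNAJB11 and DNAJC3 were 0.52 to 0.65 and 0.56 to 0.59 higher.

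Of 16 glutathione and transsulfuration genes, 14 were at −1 or more on the mock array; 4 were reduced with DAC, 4 with OR-2003 and 5 with OR-2100, and 2 were induced with each; the medians were −0.51, −0.56 and −0.57. AIFM2 (FSP1), which protects membranes from lipid oxidation, was lowest at −1.50, −1.48 and −1.58, followed by MAT2A, which makes S-adenosylmethionine, at −1.31, −1.37 and −1.24. GCLC, the catalytic subunit of the first step of glutathione synthesis, was at 4.36 on the mock array and at 3.20, 3.21 and 3.17 with the drugs. GPX4, the peroxidase that uses glutathione against lipid peroxides, was −0.38 to −0.31 from mock. The induced genes were CBS and CDO1, which oxidises cysteine. CDO1 was at −4.44 on the mock array and at 3.54, 3.50 and 3.46 with the drugs, or at least 226-fold, 221-fold and 215-fold higher. GGT1, at 0.62 to 0.66, was next to CBS among genes well above background on every array.

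In the mTORC1 path that DDIT4 restrains, 17 of 19 genes were at −1 or more on the mock array; 4, 4 and 5 were reduced with the drugs and 1, 2 and 1 induced, with medians of −0.34, −0.33 and −0.44. DEPTOR, another inhibitor of mTOR, was the lowest of the list, at 0.84 on the mock array and at −1.18, −1.22 and −1.53 with the drugs. TXNIP, which binds thioredoxin, was induced with each drug, from −6.49 on the mock array to 3.25, 2.93 and 3.27, or at least 186-fold, 149-fold and 188-fold higher. DDIT4L, the paralog of DDIT4, was at 3.18 on the mock array and at 1.24, 1.37 and 1.23. The sestrin genes diverged: SESN2, an ATF4 target, was −1.47, −1.60 and −1.65 from mock, while SESN1, a p53 target, was 0.80 to 1.07 higher, a call with OR-2003 alone, and SESN3 1.01 to 1.14 higher but under −1 on every array and so not called. The kinase gene MTOR differed from mock by 0.041 to 0.23 and TSC2, through which DDIT4 acts, by 0.0094 to 0.15. Most of these differences were smaller than the shift between scalings given above and have no settled sign.

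Between the drugs, compared at the same dose and time in 3 pairs, the 16 probes were close to each other, as were nearly all bright probes. None was 2-fold apart in any pair, where of 27921 bright probes (well above background on every array) 0.0788% were 2-fold apart between OR-2003 and DAC, 0.240% between OR-2100 and DAC and 0.516% between OR-2100 and OR-2003. The differences ran from −0.17 to 0.22 for OR-2003 minus DAC, −0.24 to 0.27 for OR-2100 minus DAC and −0.19 to 0.26 for OR-2100 minus OR-2003. All lay within the central 95% of probes, which spanned −0.36 to 0.47, −0.49 to 0.49 and −0.58 to 0.46. Such shares over all bright probes leave little room for any of the 16 to be apart. Nothing particular to these genes is read from the counts. The lowest value of OR-2100 minus DAC was that of TRIB3 and the highest that of the dimmest ASNS probe. With 1 array per compound no interval of a difference between cultures can be given, and a small difference does not show that OR-2003, with its methyl and n-propyl groups, and OR-2100, with ethyl groups, act alike on these genes.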

How the data were processed

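HML58-3 cells were measured on 4 one-colour Agilent SurePrint G3 arrays, 1 per condition, on 1 slide and in 1 scan run. For each array the authors deposited its scanner file, in which intensity is the background-corrected signal of each spot from Feature Extraction 12.1.0.3, not normalized between arrays; a deposited series table holds the same intensity values. An array held 60901 gene spots, which gave 58201 probes, and 31601 to 33282 probes were well above background. Gene spots marked as outliers (52 to 98 an array) were left out, log2 intensities of the spots of a probe were averaged and the 75th percentile was set to 0, as in the study's methods. Probes were named through RefSeq accessions, 34892 of them. The reduced and induced calls use its threshold of 2-fold and a level of −1. The members and the lists were chosen with earlier results of these data known. Genes were named as all 10 members, the lowest 2 and highest 2 of each list among probes that all arrays measured well above background, and the 5 nearest to SLC7A11 and to DDIT4. Other pathway genes were named after their values were seen: EIF2AK3, EIF2AK4, PSPH, SLC7A5, GCLC, GPX4, SESN2, MTOR, TSC2, BCAT1, CDO1, TXNIP, SLC7A7, VLDLR, DDR2, FGF21, PPP1R15B, SLC1A3, SLC7A11-AS1, ASNSP1, CHAC2 and TRIB2. A marker gene of another cell type is not reported here and is not part of the summed intensity of those markers. No test was run between conditions. The call of reduced probes was checked on simulated data for each drug. In each, 200 of 200 probes lowered 4-fold, of 58201, were recovered with 0 other calls. The simulated noise was the median spread between spots of 1 array, with no difference between cultures or arrays. With so little noise the outcome was close to fixed, so it checks only that the rule runs as written. The alternatives tried were the series table, background correction by normexp, offset 50 (planned on the mean intensity, run on the deposited median intensity), and quantile normalization. Others were the percentile of bright probes, scaling by the median, inclusion of marked spots and taking the median spot. A 4-fold threshold, a level threshold of 0 and no level threshold were tried too. For the pathway genes the mean of a gene's probes was also used. Python 3.11.15, numpy 2.4.6, pandas 2.3.3, matplotlib 3.10.9, R 4.3.3 and limma 3.58.1 were used.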

Additional observations from a re-analysis of the deposited data

How the results depend on the processing

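The 9 reduced probes of the 10 genes stayed at 9 with every drug under the alternatives, except for 7 with a 4-fold threshold. That threshold left 8, 9 and 9 reduced pathway genes with DAC, OR-2003 and OR-2100; the other alternatives gave 38 to 63. Of 336 log2 differences of the 16 probes under 7 alternatives, 272 moved by less than the error of the scanner software and 64 by more, and no called value changed sign. SLC7A11 ranged from −4.78 to −4.16, DDIT4 from −4.38 to −3.93, the dimmer CHAC1 probe from −3.72 to −2.34, ATF4 from −1.73 to −1.10 and the brightest ATF3 probe from 0.94 to 1.45, which was 0.94 with OR-2003 under median scaling. CTH, at −0.21 to 0.32, and the second ASNS probe, at −0.085 to 0.49, had no settled sign. The median of all bright probes, at −0.23 to −0.19 as reported, lay at −0.013 to 0.012 with the percentile of bright probes and at −0.41 to −0.32 with median scaling. No paired analysis was possible because there is only 1 array for a condition, and for the same reason no array could be left out. Signals near background have only a bound.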
